A study of Mus musculus with 7 samples.

Results

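The lysosome is acidified by the vacuolar-type proton pump (V-ATPase), and 36 genes of this pump, of the lysosomal membrane and of phagosome maturation were followed in tumour-associated macrophages after treatment with Pracinostat. They were taken from the deposited count table by gene symbol. All 36 had a row among the 25571 rows, and all 36 were among the 15822 genes that passed the filter on low counts. They comprise 8 subunits of the membrane sector V0, 8 subunits of the cytosolic sector V1 and 2 accessory proteins. The others are 5 lysosome membrane proteins, 3 transcription factors, 5 genes for Rab GTPases and a Rab effector, and 5 tethering subunits.

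Both groups came from NSG mice carrying T387 glioblastoma xenografts in the brain, a strain without T, B or NK lymphocytes that keeps its own myeloid cells. The Pracinostat group (n = 4) received the histone deacetylase inhibitor at 30 mg/kg by oral gavage, and the DMSO group (n = 3) received the solvent of DMSO, PEG300, Tween-80 and PBS without drug. Both were dosed 4 times a week for 3 weeks, from day 7 after implantation. A value of 3 mg/kg, given in the labels for the preparation, was not taken as the dose. At the end, CD11b+ cells were sorted from the dissociated tumours and total RNA was sequenced. The labels call the samples biological replicates without naming the animals, so p-values measure the spread between these samples. The question behind the comparison is how these phagocytes differ after weeks of deacetylase inhibition, in a study concerned with enhancers of phagocytosis.

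Libraries held 10142753 to 16950597 counts. All 13 macrophage and microglia markers were detected in all 7 libraries, with a summed level of 9385 to 13400 CPM (counts scaled by library size) with Pracinostat and 8829 to 10680 CPM with DMSO. CD11b is also carried by neutrophils and some dendritic cells, whose 7 markers each summed to 366 to 463 and 141 to 243 CPM with Pracinostat, against 279 to 492 and 140.1 to 147 CPM with DMSO. Most of the neutrophil sum was Csf3r, at 319.7, 377, 360.2 and 411 CPM with Pracinostat and 359, 349 and 271 CPM with DMSO. S100a9, which is more specific to neutrophils, stood at 49.4, 38.0, 0 and 22.5 CPM with Pracinostat and 45.8, 8.88 and 0.515 CPM with DMSO, so libraries of both groups differed in it. The largest part of the dendritic sum was Siglech, at 51.4 to 118 CPM and 54.9 to 111.5 CPM. Within each group Siglech was highest in replicate 3, where Flt3, Zbtb46, Clec9a, Ccr7 and Cd209a of the same list were lowest. Flt3 stood at 44.0, 45.4, 8.66 and 32.3 CPM with Pracinostat and 32.4, 40.6 and 12.3 CPM with DMSO. Xcr1 was lowest in DMSO replicate 3 but not in Pracinostat replicate 3. The dendritic sum therefore does not follow most of its markers. Collagen transcripts marked 1 library of each group. The fibroblast gene Col1a1 stood at 439.9 CPM in Pracinostat replicate 1 and 702 CPM in DMSO replicate 2, against 11.7 to 32.2 CPM in the others. Col1a2 and Col3a1 were also highest in these libraries. The other fibroblast markers did not set them apart. Pdgfra stood at 3.41 and 4.16 CPM there, against 0 to 4.09 CPM in the others, and Dcn and Lum reached at most 1.84 and 0.477 CPM. Oligodendrocyte markers summed to 216 to 1052 CPM with Pracinostat and 193 to 363 CPM with DMSO, astrocyte ones to 73.9 to 137.5 and 87.7 to 122 CPM, and neuronal ones to at most 20.9 and 16.9 CPM. Endothelial and mural markers summed to 337, 403, 263 and 102 CPM with Pracinostat and to 341, 334 and 267 CPM with DMSO, lowest in Pracinostat replicate 4.

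A particle that a macrophage engulfs becomes acidic and is digested as its phagosome matures. The small GTPase RAB5 marks the early phagosome and is replaced by RAB7, and the HOPS complex then tethers the phagosome to lysosomes, whose V-ATPase pumps protons inward at the cost of ATP. The V1 sector hydrolyses ATP and turns a rotor, and the V0 sector conducts protons through the membrane. The transcription factors TFEB, TFE3 and MITF switch on many lysosomal genes together through E-box elements of the CLEAR type, and nutrients act on these factors through mTORC1 at the lysosome.

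Promoter sequences show a motif that part of these genes share. RefSeq promoter windows (build GRCm38.p6, from 250 bases before to 50 bases after the annotated start) were at hand for 28 of the 36 genes, in 38 windows. They were missing for Atp6v0a2, Atp6v0d2, Atp6v1b2, Atp6v1c1, Atp6v1g1, Atp6v1h, Rab7b and Vps11. The E-box core CACGTG, read on both strands, stood in a window of 9 of the 28 genes (32.1%), against 8.09% of all 27025 genes with a window and 11.5% of the 10369 of them that were tested. The longer palindrome TCACGTGA, which contains that core, stood in 7 of the 28 (25%), against 1.12% and 2.19%. The GC box GGGCGG was common throughout, in 82.1% of the 28 genes, 38.2% of all and 67.3% of the tested ones, and the other E-box core CATGTG was found in 7.14%, 15.9% and 10.7%. These matches describe letters and not bound sites.

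The stretches before the annotated start that hold the palindrome are shown for 5 genes, 5′ to 3′ on the gene's own strand, with TCACGTGA in capitals. They are shown because the same 8 letters recur in genes for the pump's catalytic subunit (Atp6v1a), the lysosomal cation channel (Mcoln1), the early phagosome GTPase (Rab5a) and the core tethering subunits (Vps16 and Vps33a). Coordinates are chr16:44139358-44139417 on the minus strand, chr8:3500447-3500506 on the plus strand, chr17:53479112-53479171 on the plus strand, chr2:130424275-130424319 on the plus strand and chr5:123573016-123573070 on the minus strand, in the order of the lines and in GRCm38.p6.
Atp6v1a: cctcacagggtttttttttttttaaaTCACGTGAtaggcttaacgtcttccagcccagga
Mcoln1: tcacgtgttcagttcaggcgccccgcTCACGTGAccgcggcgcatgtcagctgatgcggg
Rab5a: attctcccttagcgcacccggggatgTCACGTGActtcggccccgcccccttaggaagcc
Vps16: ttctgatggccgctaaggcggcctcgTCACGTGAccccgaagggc
Vps33a: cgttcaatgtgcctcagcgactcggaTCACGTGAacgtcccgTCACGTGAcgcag
Vps33a holds the palindrome at 2 places. In Atp6v0d1 and Atp6v0e it lay across or just after the start and is not printed.

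Lamp1 had the most E-box cores of these promoters, 4 within the last 61 bases before the start. Atp6v0b, Mcoln1, Rab5a and Vps33a had 2 each. The Lamp1 stretch, chr8:13159090-13159160 on the plus strand of GRCm38.p6, is shown with CACGTG in capitals, because Lamp1 is also the lysosome membrane gene with the smallest p in the comparison of the groups.
Lamp1: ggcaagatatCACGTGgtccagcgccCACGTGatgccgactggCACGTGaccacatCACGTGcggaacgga

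**Figure D1:**
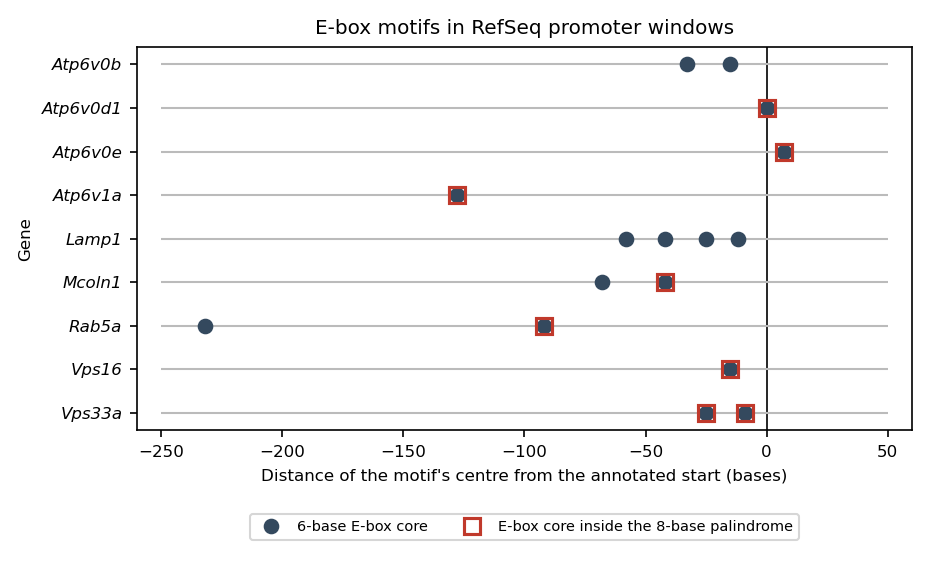
Positions of the E-box core (dots) and of the 8-base palindrome around it (squares) in the promoter windows of the 9 genes that hold the core, by distance of the motif's centre from the annotated start in bases. Most lie within about 100 bases of the start, and Lamp1 has a row of 4.

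None of these genes was called between the groups. With edgeR's quasi-likelihood test, 0 of the 36 had an adjusted p under 0.05, where 0 of all 15822 genes tested (0%) did. At an unadjusted p under 0.05, 0 of the 36 stood out, against 4.18% of all genes tested (2.81% higher and 1.37% lower with Pracinostat). In such bulk samples, fewer cells of a type and less RNA per cell cannot be told apart. DESeq2 called 0 of the 36 and 27 genes overall (0.171%), and limma-voom called 0 of either. Log2 fold changes (Pracinostat minus DMSO) were negative for 25 of the 36 and positive for 11, where 52.3% of all genes tested were positive. Their median was -0.07, beside 0.02 over all genes tested. The count of positive values was 16 without Pracinostat replicate 3 (median -0.03) and 18 without DMSO replicate 3 (median -0.01). Without both collagen-rich libraries the median was -0.16, and 4 of the 36 had an unadjusted p under 0.05, all lower with Pracinostat, where 753 of 16529 genes did and 0 were called.

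The data bound the size of any difference for most of the genes. The 95% interval of the fold change, taken gene by gene, lay within 2-fold either way for 34 of the 36 and within 1.5-fold for 22. The 2 with wider intervals were Atp6v0d2, whose libraries differed widely within each group, and Rilp, which had few counts. These intervals are not adjusted for the number of genes.

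**Figure D2:**
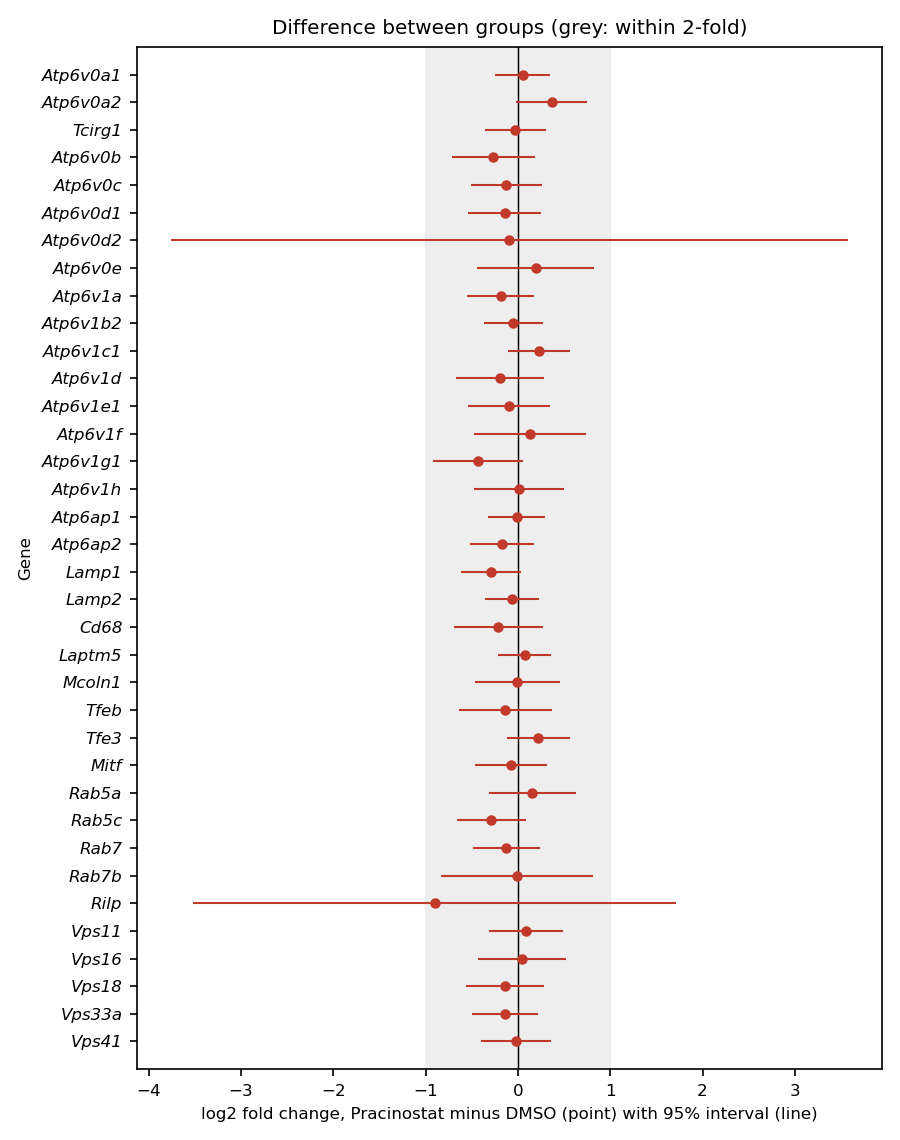
Log2 fold change of each of the 36 genes, Pracinostat minus DMSO (points), with its 95% interval (lines); the grey band marks a 2-fold difference either way. All intervals cover 0, and those of 34 genes stay inside the band.

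The membrane sector V0 carries the proton path. Atp6v0c encodes the proteolipid that forms most of the rotor ring and was the most abundant V0 transcript per kilobase of coding length, at 855 ± 126 CPM per kilobase (SD, n = 4) with Pracinostat and 933 ± 226 (SD, n = 3) with DMSO. Its level was 439, 457, 353 and 342 CPM in Pracinostat replicates 1 to 4, against 388, 359 and 554 CPM in DMSO replicates 1 to 3. The groups overlapped, and the highest library was a DMSO one (log2 fold change -0.13 ± 0.18 SE, fold 0.917, interval 0.702 to 1.20). Its reads may be shared with a processed pseudogene copy (Atp6v0c-ps2, which has its own row), so its value is uncertain.

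The a subunit holds the stator side of the proton path and decides which membrane the pump goes to, with Atp6v0a1, Atp6v0a2 and Tcirg1 (the a3 isoform of lysosomes and osteoclasts) as alternatives. Of all V0 genes Atp6v0a2 had the smallest p. It stood at 102, 113, 149.6 and 128 CPM with Pracinostat, against 109, 85.7 and 92.1 CPM with DMSO. Of the Pracinostat libraries only replicate 1 lay below the highest DMSO library, and the difference did not pass (log2 fold change 0.37 ± 0.18 SE, edgeR unadjusted p = 0.0607, adjusted p = 0.9998, fold 1.29, interval 0.987 to 1.68). Atp6v0a2 overlaps an antisense gene, 4930404A12Rik, over 663 exon bases of the GENCODE M21 annotation. Atp6v0a1 was among the steadiest of these genes, at 256 to 287 CPM with Pracinostat and 242 to 277 CPM with DMSO. Tcirg1 stood at 270.1 to 362 CPM and 280.3 to 321 CPM.

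By share of the a family's summed level per kilobase of coding length, Tcirg1 made up 43.0 ± 2.80% (SD, n = 4) with Pracinostat and 46.1 ± 3.04% (SD, n = 3) with DMSO. Atp6v0a1 made up 39.6 ± 2.64% and 39.8 ± 1.51%, and Atp6v0a2 17.5 ± 2.82% and 14.2 ± 1.76%. All 3 shares overlapped between the groups. By whole transcript length, Atp6v0a1 made up 45.6 ± 2.66% with Pracinostat and 45.2 ± 1.89% with DMSO, and Tcirg1 43.9 ± 2.70% and 46.4 ± 2.84%. Atp6v0a2 then made up 10.5 ± 1.85% and 8.35 ± 1.09%. Which gene led with Pracinostat thus depended on the length used. In the families of paralogs given here, the 95% Wilson interval of a share of counts within a library reached at most 2.08 points either side, which covers counting error only.

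The d subunit couples the rotor to the ring, and here the libraries differed most. Atp6v0d2, the isoform known from osteoclasts and found in some mouse macrophages, is described because its spread was seen in the values. It stood at 141, 117, 3.24 and 7.16 CPM in Pracinostat replicates 1 to 4, against 34.8, 35.0 and 145 CPM in DMSO replicates 1 to 3. Pracinostat replicates 1 and 2 and DMSO replicate 3 were high, DMSO replicates 1 and 2 were lower, and Pracinostat replicates 3 and 4 were lowest, with 49 and 74 counts. The highest Pracinostat library exceeded the lowest 43.5-fold. Of the 8841 genes with a mean of at least 10 CPM, 0.351% had a larger ratio within the Pracinostat group and 2.24% had a larger one than its 4.18-fold within the DMSO group. The group difference was therefore not resolved (log2 fold change -0.09 ± 1.45 SE, interval 0.0738-fold to 11.9-fold), and its sign turned to 0.95 without DMSO replicate 3.

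Its ubiquitous paralog Atp6v0d1 did not share this spread, at 120.5, 97.9, 87.0 and 126 CPM with Pracinostat and 141, 101 and 116 CPM with DMSO. Atp6v0d2 accordingly made up 54.0, 54.6, 3.60 and 5.39% of the d family's level per kilobase of coding length in Pracinostat replicates 1 to 4, against 19.9, 25.9 and 55.7% in DMSO replicates 1 to 3. By coding length the share was thus above that of Atp6v0d1 in 3 libraries, spread over both groups. Per kilobase of whole transcript the Atp6v0d2 share ran from 2.33 to 43.5% with Pracinostat and from 13.7 to 44.6% with DMSO. By that length it was below the Atp6v0d1 share in every library.

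Markers of osteoclast-like cells, which use this subunit, were compared beside it. Of 7 listed, 6 had a row, and 3 of them were detected in all 7 libraries. Their sum was 155, 120.2, 38.2 and 175 CPM with Pracinostat and 183, 219 and 248.5 CPM with DMSO, without overlap between the groups. It was mostly Acp5 and Mmp9. The groups overlapped for Acp5 by itself, and no background share for sums of genes was computed. Of the 5 tested, 4 had negative log2 fold changes (median -0.61). The positive one, Dcstamp, had the smallest p (1.46 ± 0.54 SE, edgeR unadjusted p = 0.0162, adjusted p = 0.9998). Groups did not overlap for Dcstamp, higher with Pracinostat, and for Mmp9, lower, or 40% of those tested against 6.1% of all genes tested. Mmp9, a secreted protease, stood at 18.2, 15.7, 0 and 35 CPM with Pracinostat, against 39.5, 52.1 and 116 CPM with DMSO, also without overlap (-2.01 ± 1.32 SE, edgeR unadjusted p = 0.184, adjusted p = 0.9998). The sum was low in Pracinostat replicate 3 but not in replicate 4, where Atp6v0d2 was also low. Ctsk was at 0 in Pracinostat replicate 3 and DMSO replicate 2, and Oscar was at 0 in every library but DMSO replicate 3. Calcr was the listed gene without a row. The part of such cells in the Atp6v0d2 values was not tested.

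**Figure D3:**
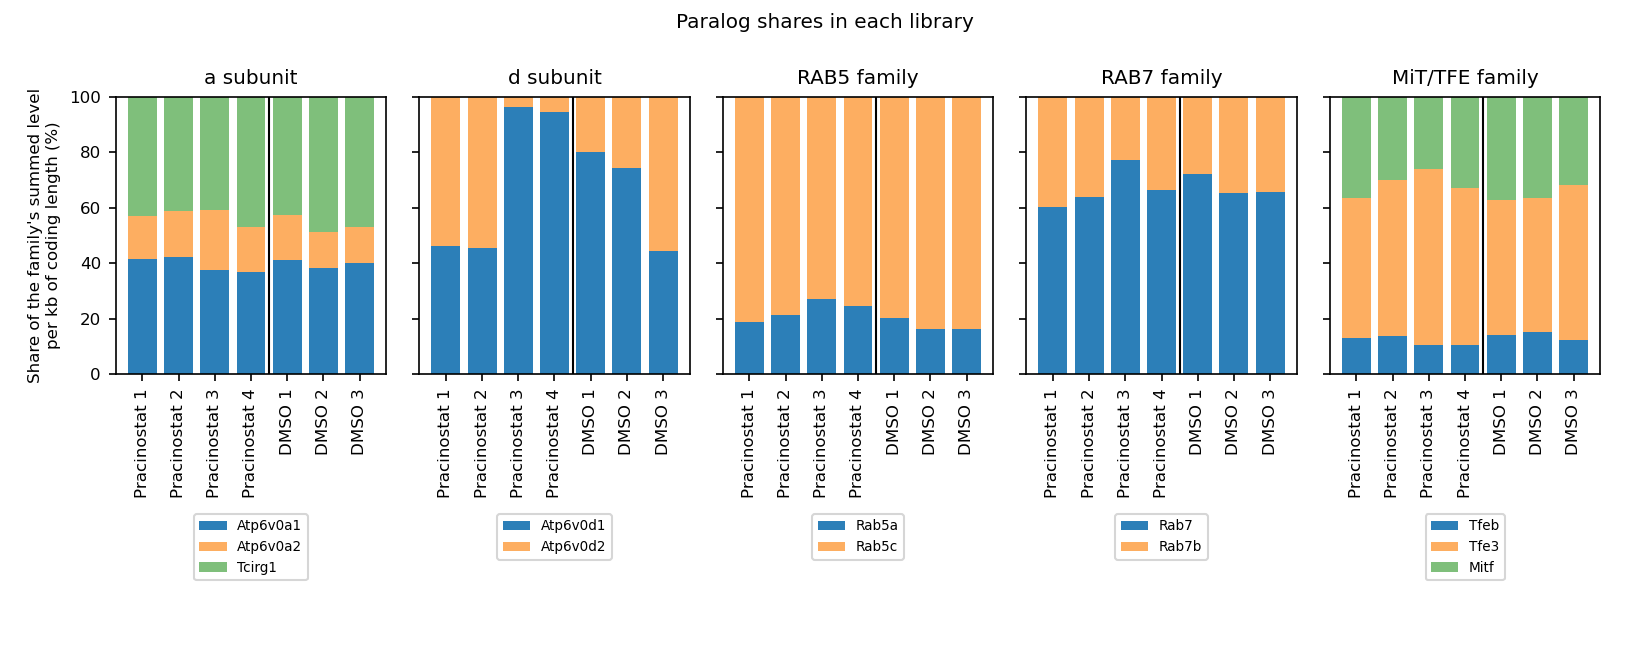
Share of each paralog in its family's summed level per kilobase of coding length (percent, stacked bars) in the 4 Pracinostat and 3 DMSO libraries, for 5 families. Atp6v0d2 ranges from 3.60 to 55.7% of the d subunit, while Tcirg1 keeps 43.0 ± 2.80% (Pracinostat) and 46.1 ± 3.04% (DMSO) of the a subunit.

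The remaining V0 subunits are small. Atp6v0b, a second kind of proteolipid, stood at 38.4 to 47.7 CPM with Pracinostat and 41.0 to 56.8 CPM with DMSO. Atp6v0e, which encodes the small e subunit, stood at 32.2 to 41.0 CPM and 18.2 to 48.6 CPM. Both overlapped between the groups, with log2 fold changes of -0.27 ± 0.21 SE and 0.19 ± 0.30 SE.

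The V1 sector burns ATP, and its C subunit (Atp6v1c1) binds V1 to V0 when the pump assembles. Atp6v1c1 was the 1 gene of the 36 (2.78%) whose groups did not overlap, where 6.1% of all genes tested had such groups (3.51% higher and 2.59% lower with Pracinostat). It stood at 158.5, 132, 126 and 130.3 CPM with Pracinostat, against 115, 113 and 122 CPM with DMSO. The margin between the lowest Pracinostat and the highest DMSO library was small, and the difference did not pass (log2 fold change 0.23 ± 0.16 SE, fold 1.17, interval 0.929 to 1.48, edgeR adjusted p = 0.9998).

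Atp6v1g1, a subunit of the peripheral stalks, was the V1 gene with the smallest p and the highest level per kilobase of coding length. Its coding part is 354 of 1135 transcript bases, so this rank depends on the length used. Atp6v1g1 stood at 90.5, 46.5, 65.1 and 56.9 CPM with Pracinostat, against 107, 77.2 and 78.6 CPM with DMSO. Replicates 2, 3 and 4 of Pracinostat lay below all DMSO libraries and replicate 1 lay among them (log2 fold change -0.43 ± 0.23 SE, edgeR unadjusted p = 0.0767, adjusted p = 0.9998, fold 0.740, interval 0.528 to 1.04). The sign was negative in all 7 fits that left out a library, at -0.64 to -0.26.

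The catalytic and nucleotide-binding subunits differed less. Atp6v1a, the subunit that hydrolyses ATP, stood at 303, 246, 196 and 269 CPM with Pracinostat, against 256, 289 and 321 CPM with DMSO. Its partner in the ring of A and B subunits, Atp6v1b2, stood at 192 to 233 CPM and 210.3 to 253 CPM. Both overlapped, at fold changes of 0.878 (interval 0.683 to 1.13) and 0.965 (interval 0.773 to 1.20). The central stalk gene Atp6v1d stood at 35.6 to 66.9 CPM with Pracinostat and 58.0 to 68.8 CPM with DMSO, its low value being that of Pracinostat replicate 3, and its partner Atp6v1f stood at 39.6 to 52.9 CPM and 22.2 to 56.9 CPM. The stalk gene Atp6v1e1 and the regulatory subunit gene Atp6v1h stood at log2 fold changes of -0.09 ± 0.21 SE and 0.01 ± 0.23 SE.

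The accessory proteins help the pump to assemble and to traffic. Atp6ap1 was the steadier, at 229.5, 207, 192 and 199 CPM with Pracinostat and 209, 216 and 201 CPM with DMSO (fold 0.991, interval 0.800 to 1.23). Atp6ap2, the prorenin receptor, stood at 106, 91.9, 117 and 99.2 CPM, against 129, 112 and 108 CPM with DMSO (log2 fold change -0.17 ± 0.16 SE). Here 3 of the 4 Pracinostat libraries lay below all DMSO libraries.

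Summed over their 8 genes, V0 transcripts came to 1198 to 1443 CPM with Pracinostat and 1200 to 1579 CPM with DMSO, and V1 transcripts to 776 to 1052 CPM and 879 to 1052 CPM. For both sectors the Pracinostat libraries reached as low as or lower than the DMSO ones, with replicate 3 the lowest, and the ranges overlapped.

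The lysosome membrane genes Laptm5, Lamp1 and Cd68 had the highest levels per kilobase of coding length of the 36. Laptm5, which encodes a lysosomal protein of blood cells, stood at 1695, 1969, 1696 and 1737 CPM with Pracinostat, against 1694, 1594 and 1775 CPM with DMSO. Only Pracinostat replicate 2 lay above the DMSO range (fold 1.05, interval 0.860 to 1.29). Lamp2, a heavily glycosylated coat protein of lysosomes that also takes part in chaperone-mediated autophagy, varied least over the 7 libraries, at 416 to 453 CPM with Pracinostat and 431.5 to 473 CPM with DMSO.

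Lamp1, the other main glycoprotein of the lysosomal coat, had the smallest p of the lysosome membrane genes. It stood at 1371, 1331, 1084 and 1324 CPM with Pracinostat, against 1779, 1326 and 1580 CPM with DMSO. DMSO replicates 1 and 3 lay above all Pracinostat libraries, while DMSO replicate 2 lay within their range. The log2 fold change was -0.29 ± 0.15 SE (fold 0.818, interval 0.653 to 1.02, edgeR unadjusted p = 0.0758, adjusted p = 0.9998). The unadjusted p was 0.0491 with DESeq2, 0.045 with limma-voom and 0.0459 with no scaling beyond library size, and no adjusted p passed. Lamp1 overlaps Grtp1 on the opposite strand over 249 exon bases.

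Cd68, the macrophage scavenger receptor of late endosomes, varied between libraries of the same group. It stood at 1469, 1268, 846 and 859 CPM with Pracinostat, against 1154, 1031 and 1677 CPM with DMSO. Pracinostat replicates 3 and 4 were the lowest and DMSO replicate 3 the highest. The log2 fold change was -0.21 ± 0.22 SE and turned to 0.02 without DMSO replicate 3. Mcoln1, the calcium and iron channel TRPML1, stood at 60.8 to 68.6 CPM with Pracinostat and 44.5 to 83.8 CPM with DMSO, so the DMSO libraries enclosed all Pracinostat libraries.

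**Figure D4:**
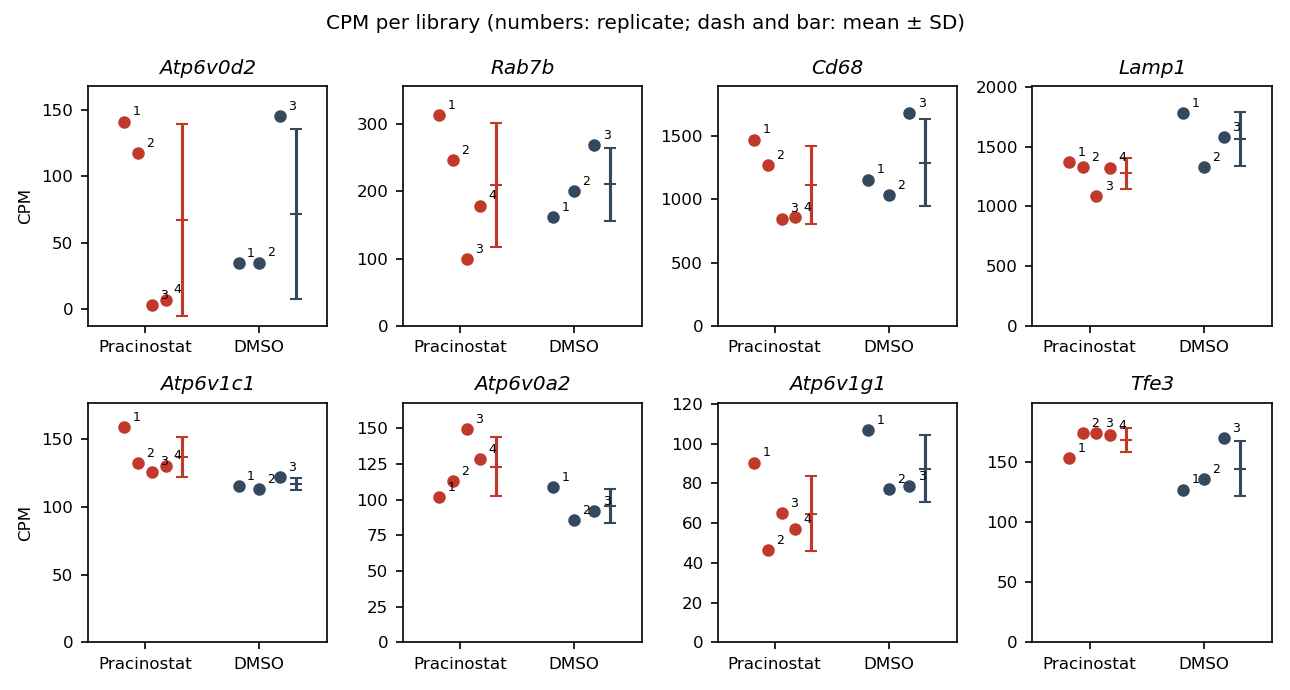
CPM of 8 genes in each Pracinostat (left) and DMSO (right) library; numbers give the replicate, and the dash with its bar gives mean ± SD (n = 4 and n = 3). Atp6v0d2 runs from 3.24 to 145 CPM with high and low libraries in both groups, and Atp6v1c1 is the gene without overlap.

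The MiT/TFE factors that drive lysosomal genes are controlled mainly through their location in the cell, which RNA does not show. Tfe3 was the most abundant of the 3 per kilobase of coding length and had the smallest p among them. It stood at 153, 174, 174 and 172 CPM with Pracinostat, against 127, 136 and 170.1 CPM with DMSO. Of the DMSO libraries, replicate 3 lay inside the Pracinostat range and the others below it (log2 fold change 0.22 ± 0.16 SE, fold 1.17, interval 0.922 to 1.48, edgeR adjusted p = 0.9998). Tfeb stood at 26.9 to 39.5 CPM with Pracinostat and 34.7 to 40.2 CPM with DMSO, and Mitf at 66.1 to 103 CPM and 88.5 to 94.7 CPM. Of the summed level of Tfeb, Tfe3 and Mitf per kilobase of coding length, Tfe3 made up 56.6 ± 5.38% (SD, n = 4) with Pracinostat. With DMSO it made up 50.9 ± 4.42% (SD, n = 3), and the ranges overlapped. The related gene Tfec was not in this sum.

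Among the Rab genes, Rab7, the GTPase of late phagosomes and lysosomes, was the most abundant per kilobase of coding length. It stood at 491, 452.5, 352 and 368 CPM with Pracinostat, against 433, 393 and 534 CPM with DMSO (fold 0.917, interval 0.715 to 1.18). Pracinostat replicates 3 and 4 lay below all DMSO libraries. A pseudogene, Rab7-ps1, has its own row, so single values of Rab7 are uncertain. Rab7b, a relative of RAB7 known for its part in trafficking from endosomes in myeloid cells, varied more, at 313, 246, 99.0 and 179 CPM with Pracinostat and 161, 200.3 and 269 CPM with DMSO. Pracinostat replicate 1 was highest and Pracinostat replicate 3 lowest, a 3.16-fold range that 7.26% of the 8841 genes exceeded within this group.

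Rab5c, an early endosome GTPase, had the smallest p of the Rab genes. It stood at 225.5, 222, 165 and 171 CPM with Pracinostat, against 255, 193 and 269.9 CPM with DMSO. The groups overlapped through DMSO replicate 2 (log2 fold change -0.29 ± 0.18 SE, fold 0.819, interval 0.631 to 1.06, edgeR unadjusted p = 0.124, adjusted p = 0.9998). Rab5a leaned the other way, at 48.1 to 56.1 CPM with Pracinostat and 34.3 to 58.7 CPM with DMSO. Its share of the level of Rab5a and Rab5c together was 18.9, 21.3, 27.0 and 24.6% in Pracinostat replicates 1 to 4, against 20.1, 16.3 and 16.4% in DMSO replicates 1 to 3. DMSO replicate 1 kept the ranges overlapping.

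Rilp, the effector that links RAB7 to dynein, was barely detected. It had 21, 2, 36 and 14 counts with Pracinostat and 51, 34 and 11 counts with DMSO, or 0.122 to 2.38 CPM and 0.709 to 4.01 CPM. At this depth a difference was not detectable (log2 fold change -0.90 ± 1.22 SE, interval 0.0875-fold to 3.27-fold).

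The tethering subunits bring membranes together before they fuse. The 5 genes summed to 383, 378, 383.5 and 372 CPM with Pracinostat, against 385, 386 and 401 CPM with DMSO. Every Pracinostat library thus lay below every DMSO library, by a narrow margin, though 0 of the 5 genes was without overlap by itself. Of the sums of the 7 roles only this one separated the groups, and no background share for sums of genes was computed. The share of single genes lower without overlap, 2.59% of all genes tested, is not a like measure. Vps33a, the subunit that guides SNARE assembly, had both the highest level per kilobase of coding length and the smallest p, at 82.6, 100, 100.4 and 90.1 CPM with Pracinostat and 98.0, 117.5 and 92.7 CPM with DMSO (fold 0.908, interval 0.708 to 1.16). Of the core subunits shared by HOPS and CORVET, Vps11, Vps16 and Vps18 had log2 fold changes of 0.09 ± 0.19, 0.04 ± 0.22 and -0.14 ± 0.20 (SE), and the HOPS subunit Vps41 had -0.02 ± 0.18.

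Single libraries stood at the ends of the range for many of the 36 genes. Pracinostat replicate 3 was the lowest of the 7 libraries for 16 of the 36 genes (44.4%), while it was the lowest for 18.3% of the 8841 genes with a mean of at least 10 CPM. DMSO replicates 1 and 3 were each the highest for 10 (27.8%), against 13.9 and 14.6% of those genes. Pracinostat replicate 3 also had the highest Itgam of all libraries, at 2579 CPM against 1318 to 1692 CPM in the others. It had the highest sum of macrophage and microglia markers too. Csf1r and Cx3cr1 of that list were also highest there, but not every marker was. Ptprc stood at 521 CPM there, against 472 to 733 CPM in the others, and Trem2 at 247 CPM, against 218 to 363 CPM. The part of this library's other features in its low lysosomal transcripts was not tested. Together the 36 genes held 0.791 to 0.923% of counts with Pracinostat and 0.870 to 1.01% with DMSO. The ratio of the highest to the lowest library was under 2 for 30 of the 36, with a median ratio of 1.62 for the 35 genes with a mean of at least 10 CPM, beside 1.87 for all such genes.

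**Figure D5:**
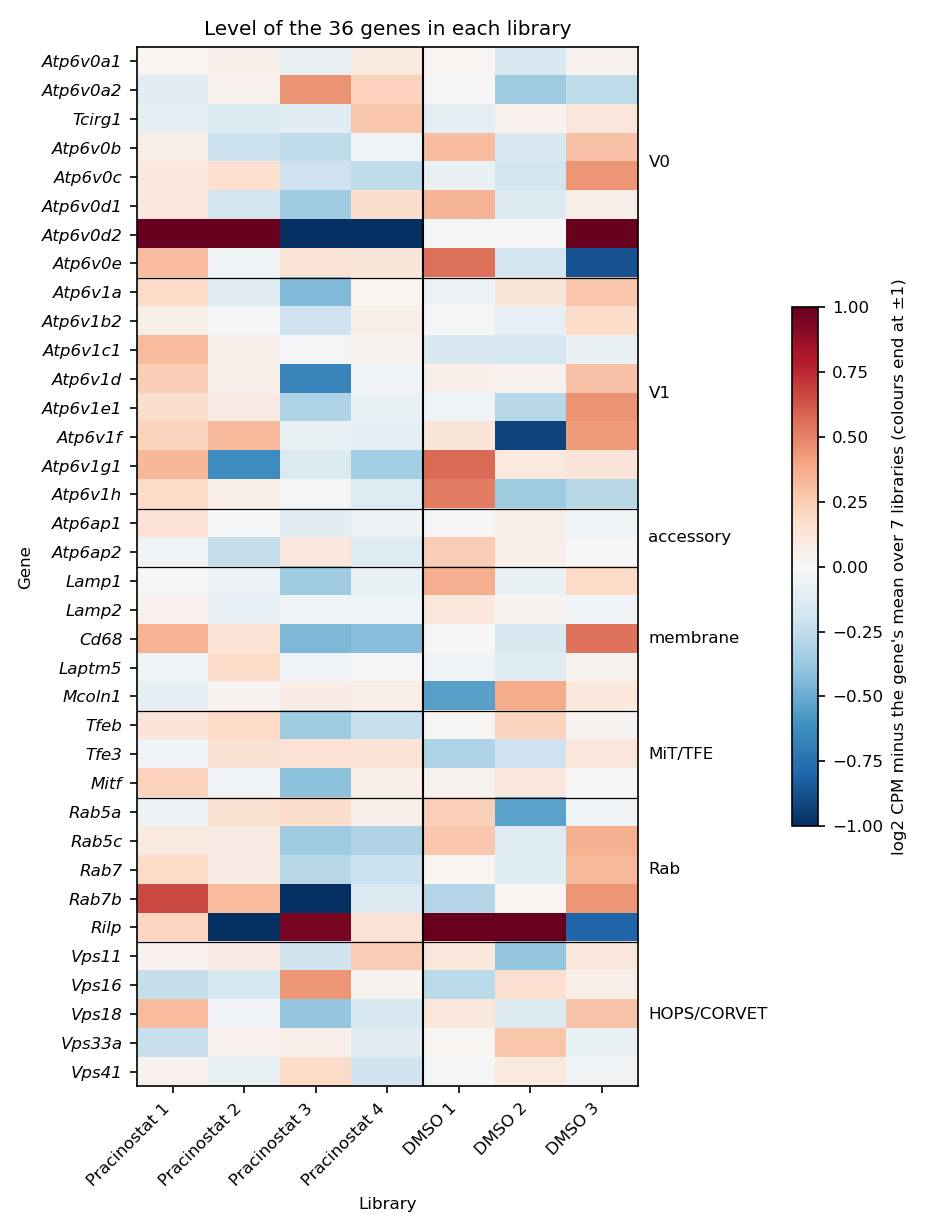
Level of each of the 36 genes in the 4 Pracinostat and 3 DMSO libraries, as log2 CPM centred on each gene's own mean, with rows grouped by role and colours ending at 1 either way. Pracinostat replicate 3 is the lowest library for 16 genes, and Atp6v0d2 and Rilp show the widest range.

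Other genes of these pathways were read from 4 further lists, and 0 of them passed edgeR's test over all genes. Of the remaining V-ATPase subunits and assembly factors, 11 were tested, 7 negative and 4 positive, with a median log2 fold change of -0.15. The assembly factor Ccdc115 stood at 18.3 to 22.2 CPM with Pracinostat and 24.3 to 31.8 CPM with DMSO without overlap (log2 fold change -0.51 ± 0.25 SE, edgeR unadjusted p = 0.0613, adjusted p = 0.9998), and the e2 subunit gene Atp6v0e2 at 4.36 to 7.18 and 7.67 to 9.92 CPM, also without overlap, which makes 18.2% of this list against 6.1% of all genes tested. Of 28 other lysosome membrane proteins tested, 19 were negative and 9 positive (median -0.09). The lysosomal peptide and histidine transporter gene Slc15a3 stood at 425 to 635 CPM with Pracinostat and 275 to 441 CPM with DMSO (0.47 ± 0.19 SE, edgeR unadjusted p = 0.0286, adjusted p = 0.9998), and Tmem106b at -0.30 ± 0.18 SE. Mfsd1 was the 1 gene of this list without overlap, lower with Pracinostat (-0.22 ± 0.15 SE), or 3.57% of the list against 6.1% of all genes tested.

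Phagosome maturation genes outside the 36 were evenly split, with 20 of 38 positive and a median log2 fold change of 0.01. Rabgef1, an exchange factor for RAB5, was at 0.43 ± 0.28 SE and Pik3c3, the class III phosphoinositide kinase, at -0.38 ± 0.27 SE. Rubcn was the 1 gene without overlap, higher with Pracinostat (0.24 ± 0.18 SE), or 2.63% of the list against 6.1% of all genes tested. Of 22 regulators of the MiT/TFE factors and of mTORC1, 15 were negative and 7 positive (median -0.11). Tfec, the fourth member of the factor family, stood at 14.2, 9.74, 4.03 and 10.5 CPM with Pracinostat, against 21.3, 25.1 and 12.1 CPM with DMSO. The ranges overlapped through Pracinostat replicate 1 and DMSO replicate 3 (log2 fold change -1.02 ± 0.42 SE, edgeR unadjusted p = 0.0303, adjusted p = 0.9998). Rheb, the GTPase that activates mTORC1, stood at 51.3 to 67.8 CPM and 68.4 to 97.2 CPM without overlap (-0.41 ± 0.20 SE, edgeR unadjusted p = 0.0583), the 1 such gene of the list (4.55%).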

How the data were processed

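Libraries were made from 1 ng of total RNA with a stranded kit and read as pairs of 150 bases over 2 lanes, per the labels' protocols. Tools listed in the submitters' processing notes are STAR, RSEM, DESeq2, Trim Galore, MultiQC and FastQC, with GRCm39 as the build. Which annotation was counted, and whether strand was used, is not given in the sources at hand. What was deposited are expected counts, stored as whole numbers, with no normalization. Of the 25571 rows, 3205 carry an Ensembl ID and the others a gene symbol. Exons of 8 of the 36 genes overlap a gene on the opposite strand in GENCODE M21 (32 to 663 bases), so their counts are uncertain.

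Groups were compared with edgeR 4.0.16 (R 4.3.3): scaling by TMM, the filterByExpr filter (minimum count 10), a robust quasi-likelihood fit, two-sided test, Benjamini-Hochberg adjustment over 15822 genes and a threshold of 0.05. CPM levels use TMM-scaled library sizes, and coding lengths come from GENCODE M21. Orders of genes per kilobase of coding length can differ from orders by whole transcript length. Alternatives used DESeq2 1.42.0, limma 3.58.1 (voom), other scalings and filters, a replicate block and left-out libraries. No 2 libraries were duplicates (the smallest chi-square ratio to its degrees of freedom was 31.9). The 36 genes and the lists were chosen with earlier results of these data known. Among the 36, values in every library are given for genes without overlap or with an unadjusted p under 0.05, for those with the highest level per coding length and the smallest p in each role, and each further list gives up to 2 genes with the smallest p, some by their range. Atp6v0d2, Rab7b, Cd68, Atp6v0d1, Atp6v1a and Rilp were added after their values were seen, as were Mfsd1, Rubcn, Mmp9, Csf3r, S100a9 and Siglech. The same holds for the other dendritic markers named, for Col1a2, Col3a1, Pdgfra, Dcn and Lum, and for Csf1r, Cx3cr1, Ptprc and Trem2.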

Additional observations from a re-analysis of the deposited data

Results flagged for a closer look

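In the 4 Pracinostat libraries, 48 values (the 36 levels and 12 paralog shares) were screened for a library set apart from the other 3, and 4 had a gap above Dixon's 95% limit for the group's range. Chance flags about 1 in 20 such groups. The 48 values are not independent, because shares are made from the levels and those of a family sum to a whole. Tcirg1 stood at 361.6 CPM in Pracinostat replicate 4, against 270.1 to 280 CPM in the other Pracinostat libraries and 280.3 to 321 CPM with DMSO. Lamp1 stood at 1084 CPM in Pracinostat replicate 3, against 1324 to 1371 CPM in the others and 1326 to 1779 CPM with DMSO. Laptm5 stood at 1969 CPM in Pracinostat replicate 2, against 1695 to 1737 CPM in the others and 1594 to 1775 CPM with DMSO. Tfe3 stood at 153.3 CPM in Pracinostat replicate 1, against 172 to 174 CPM in the others and 127 to 170.1 CPM with DMSO. The 4 values fell in 4 different libraries. Atp6v0d2 was not among them, because its Pracinostat libraries formed a high and a low pair. The DMSO group, with 3 libraries, is too small for this screen.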

How the results depend on the processing

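No gene of the 36 was called under any of the 17 alternatives. Over all genes the count of 0 became 27 with DESeq2, 4 with a replicate block, 63 with no low-count filter, and 0 to 3 when 1 library was left out. The count of the 36 with an unadjusted p under 0.05 was 1 with library size only, no low-count filter, DESeq2 or limma-voom, 0 to 2 when 1 library was left out, and 4 without both collagen-rich libraries, where Atp6v1g1, Lamp1, Cd68 and Rab5c were all lower with Pracinostat. The median of the 36 was -0.1207 to -0.0115 when 1 library was left out. Same-numbered samples were not clearly paired (correlations of deviations 0.0445, -0.0352 and 0.0728, others -0.074 to 0.0511), and not every Pracinostat sample correlated best with its own number. Pracinostat replicate 4 has a block of its own there and does not inform the difference.

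The sign of uncalled log2 fold changes turned in places, and the cause was not tested. Without both collagen-rich libraries they were 0.0154 for Tcirg1, -0.2067 for Atp6v1f, -0.1899 for Atp6v1h, 0.2478 for Mcoln1, -0.0509 for Vps11, 0.0304 for Vps33a and 0.0148 for Vps41. With the replicate block they were 0.3477 for Atp6v0d2, 0.0011 for Atp6ap1, 0.0247 for Mcoln1 and 0.0368 for Vps41. Atp6v1h was at -0.0079 with library size only and Mcoln1 at 0.0372 with limma-voom. When 1 library was left out, 17 of the 36 kept their sign. For the other 19 the ranges were -0.0063 to 0.0877 for Atp6v0a1, -0.1548 to 0.0144 for Tcirg1, -0.2441 to 0.0898 for Atp6v0c, -0.7381 to 0.9467 for Atp6v0d2, -0.0916 to 0.6312 for Atp6v0e, -0.1049 to 0.0309 for Atp6v1b2, -0.2437 to 0.1376 for Atp6v1e1, -0.1745 to 0.4172 for Atp6v1f, -0.1425 to 0.3507 for Atp6v1h and -0.0623 to 0.0214 for Atp6ap1. They were -0.3717 to 0.0232 for Cd68, -0.2195 to 0.2033 for Mcoln1, -0.1596 to 0.038 for Mitf, -0.027 to 0.3472 for Rab5a, -0.2176 to 0.0097 for Rab7, -0.262 to 0.2244 for Rab7b, -0.0623 to 0.1693 for Vps11, -0.1178 to 0.1357 for Vps16 and -0.0929 to 0.0239 for Vps41. Shares per length of whole transcript were tried after the data were seen.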

Other observations

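Among the markers set beside these genes, Dcstamp, which encodes a protein of fusing osteoclasts and dendritic cells, had groups without overlap and was the 1 gene higher with Pracinostat of the 5 osteoclast-like markers tested, the other 4 having negative log2 fold changes. It stood at 15.8, 19.2, 7.74 and 6.96 CPM with Pracinostat, against 6.37, 5.12 and 2.06 CPM with DMSO (log2 fold change 1.46 ± 0.54 SE, edgeR unadjusted p = 0.0162, adjusted p = 0.9998), and was named after its values were seen. Its higher pair of Pracinostat libraries, replicates 1 and 2, was also the pair with high Atp6v0d2, while in DMSO replicate 3, where Atp6v0d2 was highest, Dcstamp was lowest. Acp5, the tartrate-resistant phosphatase of the same list, stood at 118, 76.2, 29.3 and 129 CPM with Pracinostat and 132, 161 and 105 CPM with DMSO.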
